A study of Mus musculus with 32 samples.

Results

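The 37 genes described here encode enzymes, transporters, and regulators of fatty acid oxidation, of the peroxisome, and of ketone body metabolism. They were chosen by symbol, and each symbol matched 1 of the 34452 mouse gene rows in a table of estimated counts from RPE RNA. By the place of their product, 13 are peroxisomal, 14 are mitochondrial, 2 (*Crat* and *Amacr*) act in both organelles, and 8 act elsewhere, in the activation of fatty acids, in the cytosol or ER, or as a regulator. All 37 passed the filter on low counts in every comparison.

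The RNA came from both eyes of 16 mice labelled *rd1*, a strain whose rods die early from a mutation in *Pde6b*. RPE was taken at P20 (7 mice) or at P40 (9 mice), giving 32 libraries. In each mouse, 1 eye received 2 viruses, AAV-Best1-GFP plus AAV-Best1-Nrf2, and is called the Nrf2 eye. The opposite eye received AAV-Best1-GFP alone and is called the control eye, so that the GFP virus was common to all 4 groups. The transgene is a human Nrf2 cDNA (*NFE2L2*) behind the human Best1 promoter, which directs expression to the RPE. RPE that the virus did not reach lacks it, and the control virus carries no Nrf2. According to the methods, the Nrf2 vector was packaged in AAV8 and the GFP vector in AAV27M8, and delivery was subretinal. By the doses listed there, the Nrf2 eye received more virus in total than the control eye. Effects of this dose or of the AAV8 vector cannot be told apart from those of Nrf2. The methods also list fewer *rd1* pairs than the labels do, at both ages. At P40, they list pairs of CD1 mice as well, and more of them than of *rd1* mice. Whether some P40 pairs labelled *rd1* are CD1 cannot be told apart from the sources used here, and every value at P40 rests on the labels.

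Fatty acids are activated to acyl-CoA by acyl-CoA synthetases and are then shortened by β-oxidation in mitochondria or in peroxisomes. Mitochondria take up long-chain acyl groups through the carnitine shuttle (CPT1, the carnitine carrier, and CPT2) and oxidize them for energy. Peroxisomes import very long chain, branched chain, and bile acid precursor acyl-CoAs through ABCD transporters and begin their oxidation with acyl-CoA oxidases, which release hydrogen peroxide. The RPE engulfs the lipid-rich outer segments of photoreceptors every day. It is known for oxidizing their fatty acids and for making ketone bodies from them. PPARα, encoded by *Ppara*, is a receptor for fatty acids that activates many of these genes. Nrf2 binds the antioxidant response element in DNA.

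Total counts were 16548332 to 50542797 per library. Levels are given in CPM, the counts of a library divided by its normalized total and brought to one scale, and 3 counts correspond to between 0.0566 and 0.182 CPM. The transgene was present at 1082 to 9506 CPM in Nrf2 eyes at P20 and at 3205 to 10438 CPM at P40. In control eyes, it ranged from 0.924 to 1098 CPM at P20 (median 47.2) and from 0 to 99.2 CPM at P40 (median 0.383). Where the transgene counts in control eyes came from was not tested. Similar transgene levels were found in 2 libraries with different labels. They are labelled as the control eye of P20 mouse 3 (1098 CPM) and as the Nrf2 eye of P20 mouse 4 (1082 CPM), and were also the most alike of all 496 pairs of libraries, with a mean squared difference of 7.69 times sampling noise over 17260 genes, against 43.3 times for the next pair. Where leaving out both mice changed a call of a gene named here, this is stated. The value without them is given for members, and for any called value that moved by over 1.5 times.

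The 10 RPE markers summed to between 7129 and 70976 CPM over the 32 libraries, and no marker of the RPE, rods, cones, macrophages, or inner retina was at 3 counts or fewer in every library. Cone markers summed to 39.1 to 931 CPM in control eyes and 17.9 to 94.9 CPM in Nrf2 eyes at P20, and to 271 to 2106 CPM against 28.8 to 307 CPM at P40, where 8 of 8 cone markers were lower in Nrf2 eyes. Rod markers summed to 22.4 to 435 CPM against 7.12 to 92.7 CPM at P20 and to 67.6 to 564 CPM against 7.39 to 76.2 CPM at P40. At P40, 5 of 10 RPE markers were also lower in Nrf2 eyes. Their sum had a median of 19730 CPM (12843 to 70976), against 36059 CPM (11268 to 68430) in control eyes. Higher in Nrf2 eyes were 5 of 9 macrophage markers (median sum 318 CPM, 123 to 461, against 182 CPM, 81.7 to 459). For skeletal muscle at P40, 0 of 9 markers were called (sum 33.1 to 2267 CPM, against 55.3 to 629 CPM). In RNA from whole tissue, fewer cells of a type and less RNA per cell cannot be told apart, and the part of these cells in the results below was not tested.

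Levels per length of transcript differed widely among the members in control eyes at P20. *Scp2*, which encodes a sterol carrier protein and a peroxisomal thiolase, had the highest mean, 101 CPM per kb. The mitochondrial genes *Acadl*, a long-chain acyl-CoA dehydrogenase, and *Hadhb*, the thiolase subunit of the trifunctional protein, followed with 88.5 and 85.1 CPM per kb. *Ppara* had 1.84 CPM per kb. *Cpt1b*, the muscle form of the outer-membrane carnitine palmitoyltransferase, had the lowest mean, 0.217 CPM per kb, while the liver form *Cpt1a* had 55.8 CPM per kb. *Acox2* was also near the low end, with 2.39 CPM per kb, and 1.01 CPM per kb when the mouse 3 control library of P20 is set aside.

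With Nrf2, 2 of the 37 members passed the threshold at P20 (an adjusted *P* value under 0.05 from edgeR), both higher in Nrf2 eyes, against 3.41% of all 16303 genes tested (2.93% higher and 0.485% lower). At P40, 2 members passed, 1 higher and 1 lower, against 4.57% of 16686 genes (3.33% higher and 1.23% lower). These shares rest on 2 genes at each age. *Acox2* passed at both ages, *Cpt2* at P20, and *Acot1* at P40. The median log2 fold change of the 37 members was −0.08 at P20 and −0.14 at P40, beside −0.04 and −0.03 over all genes tested.

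*Acox2* encodes the peroxisomal oxidase that acts on branched chain fatty acids and on the side chain of bile acid precursors. At P20, it had 1.85 to 31.6 CPM in control eyes (median 2.73) and 29.8 to 223 CPM (median 138) in Nrf2 eyes. The highest control value and the lowest Nrf2 value belonged to the library labelled control of mouse 3 and the library labelled Nrf2 of mouse 4. With these libraries set aside, the remaining control eyes had 1.85 to 6.24 CPM and the remaining Nrf2 eyes 130 to 223 CPM, and the groups did not overlap. At P40, control eyes had 1.16 to 4.93 CPM (median 3.3) and Nrf2 eyes 56.5 to 269 CPM (median 190), again without overlap.

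All 7 pairs at P20 and all 9 pairs at P40 had more *Acox2* in the Nrf2 eye. The fitted log2 fold change, with its SE, was 5.07 ± 0.63 at P20 (adjusted *P* = 0.00921) and 5.46 ± 0.40 at P40 (adjusted *P* = 1.4e-05). These changes correspond to 33.5-fold and 44.1-fold. Without P20 mice 3 and 4, the log2 fold change at P20 was 5.86. *Acox2* had the largest increase in the Nrf2 eye of all 37 members in each of the 16 mice, from 2.56 to 7.68 on the log2 scale, and the gene next to it varied among the mice. In P20 mouse 3, where the increase was 2.56, *Cpt1b* differed by −2.86. Mean levels per length rose from 2.39 to 50.9 CPM per kb at P20 (from 1.01 to 57.8 CPM per kb without the 2 doubted libraries) and from 1.08 to 54.0 CPM per kb at P40, close to the levels of *Abcd3* (51.6 and 46.6 CPM per kb in Nrf2 eyes). The change did not differ between the ages beyond its error (difference in log2 fold change 0.39, 95% interval −1.04 to 1.83), and was −0.43 without P20 mice 3 and 4.

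**Figure D1:**
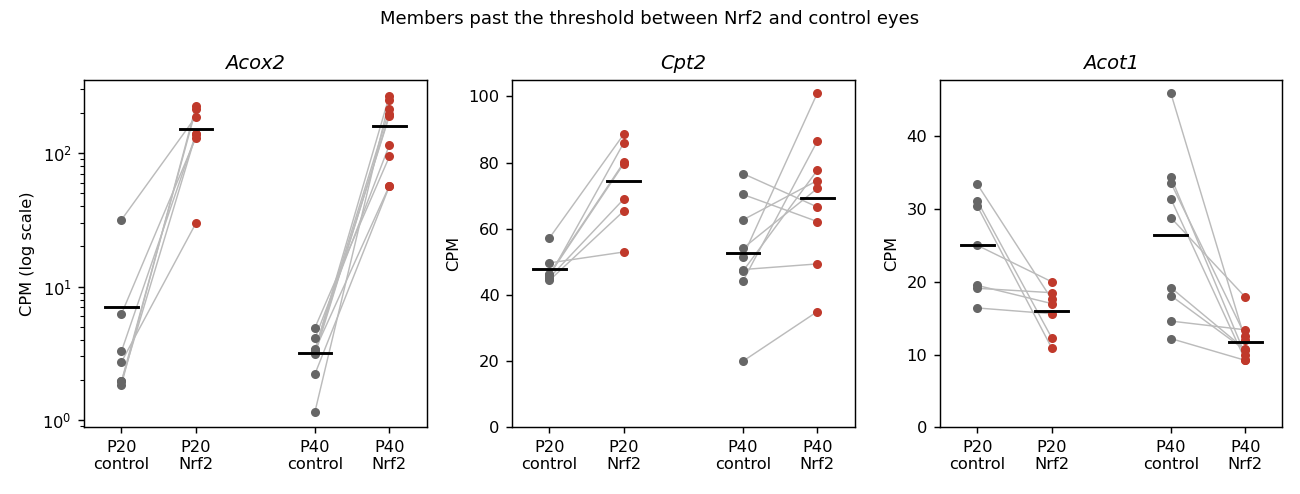
Levels of *Acox2* (log axis), *Cpt2*, and *Acot1* in CPM on the vertical axis, by age and eye. Each point is a library, grey lines join the 2 eyes of a mouse, and black bars are group means. *Acox2* rises along every line, from 1.16 to 31.6 CPM in control eyes to 29.8 to 269 CPM in Nrf2 eyes, *Cpt2* rises in all 7 pairs at P20, and *Acot1* falls in all 9 pairs at P40.

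The promoters of the members were searched for the core of the antioxidant response element, TGACNNNGC on either strand, in windows from 250 bases before to 50 bases after each RefSeq start site (GRCm38.p6). Of 32851 such windows in the genome, 12.4% held a match, and by gene the share was 14%. A window was given for 31 of the 37 members, and 4 of these genes (12.9%) held a match. The sites are shown with their flanks, 5′ to 3′ on the strand of the gene, with the match in capitals, because *Acox2* has both the site and the largest change:
*Acox2*: aagcctggaaGCTGAGTCAtgccagagtt
*Acsl6*: agggggcgtcTGACTCAGCcaggaaccgg
*Scp2*: gccccgccccTGACGCTGCggccccgccc
*Ehhadh*: gttggtggtgTGACCCAGCagtttggctt

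The *Acox2* site, at chr14:8259024-8259032 on GRCm38.p6, is written above in the direction of the gene, which is on the minus strand, and reads TGACTCAGC on the plus strand. It begins 13 bases before one RefSeq start site of *Acox2* and 193 bases before the other. In GENCODE vM21, it lies in an exonic UTR of a longer *Acox2* transcript, and the gene spans chr14:8225511-8259353. The same 9 letters stand 17 bases before the start of *Acsl6* (chr11:54303807-54303815). For *Acsl6* the log2 fold changes were 0.20 at P20 and −0.62 at P40, and neither *Acsl6* nor *Scp2* or *Ehhadh* passed the threshold with Nrf2. The direct repeat 1 motif of PPAR receptors, searched the same way on both strands, was found in 0.381% of the windows and in none of the 31 members. A match is a description of the sequence only.

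Among the other 12 peroxisomal members, none passed the threshold with Nrf2 at either age. Their fitted log2 fold changes ran from −0.69 to 0.32 at P20 and from −0.92 to 0.09 at P40. *Acox3*, the other branched chain oxidase in the list, had 45.5 ± 6.4 CPM (SD, *n* = 7) in control eyes and 49.0 ± 5.62 CPM (*n* = 7) in Nrf2 eyes at P20, with a fitted difference of 0.08 on the log2 scale (95% interval −0.17 to 0.33). At P40 its log2 fold change was also 0.08, with a wider interval of −0.44 to 0.60. The next step of the pathway is shared by *Ehhadh*, the L-bifunctional enzyme (0.08 and −0.14 at P20 and P40), and *Hsd17b4*, the D-bifunctional enzyme used for branched chain and bile acid substrates (−0.07 and 0.00). The thiolases *Acaa1a* and *Acaa1b*, whose sequences are close enough that reads may be split between them, had 0.14 and 0.18 at P20 and −0.01 and 0.09 at P40. *Scp2* had 0.11 and −0.20.

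*Decr2*, the peroxisomal 2,4-dienoyl-CoA reductase for unsaturated fatty acids, was higher in 7 of 7 pairs at P20 (log2 fold change 0.32 ± 0.10, adjusted *P* = 0.123) and had 0.07 at P40. *Abcd2*, a transporter of very long chain acyl-CoA, had the lowest values of the group, −0.69 ± 0.32 at P20 (adjusted *P* = 0.297) and −0.92 ± 0.30 at P40 (adjusted *P* = 0.15). Its Nrf2 eyes had 3.76 to 13.8 CPM and its control eyes 3.46 to 19 CPM at P20, so that the groups overlapped. *Abcd3*, another transporter, had 0.18 and −0.02. *Acot8*, a thioesterase that ends oxidation by freeing the fatty acid, had −0.37 and −0.32 (adjusted *P* = 0.253 and 0.375). *Pex5*, the receptor that carries enzymes into the peroxisome, had −0.24 and −0.06, and *Pex11a*, which acts in peroxisome division, −0.17 and −0.45. Of the members of both organelles, *Amacr*, a racemase that prepares branched chain and bile acid substrates for oxidation, had 0.47 ± 0.16 at P20 (adjusted *P* = 0.16) and −0.07 at P40. *Crat*, carnitine acetyltransferase, had −0.15 and 0.03.

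*Cpt2*, the inner-membrane enzyme that returns acyl groups from carnitine to CoA, was the mitochondrial member past the threshold. At P20, it had 44.4 to 57.2 CPM in control eyes (median 46.1) and 53.0 to 88.6 CPM in Nrf2 eyes (median 79.7). The groups overlapped only through the library labelled control of mouse 3 (57.2 CPM) and the library labelled Nrf2 of mouse 4 (53.0 CPM). The Nrf2 eye had more in 7 of 7 pairs, 1.51-fold in the fit (log2 fold change 0.60 ± 0.10, adjusted *P* = 0.018). Leaving out mouse 1, 3, 5, 6, or 7 ended the call (adjusted *P* = 0.0539 to 0.0837), with log2 fold changes of 0.55 to 0.62. With both P20 mice 3 and 4 left out, *Cpt2* passed (log2 fold change 0.68, adjusted *P* = 0.0236). At P40, control eyes had 20 to 76.7 CPM and Nrf2 eyes 35.0 to 101 CPM, with overlap. There the log2 fold change was 0.38 ± 0.17 (adjusted *P* = 0.349), with the Nrf2 eye higher in 7 of 9 pairs. The difference between the ages was −0.21 (95% interval −0.65 to 0.24).

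The other 13 mitochondrial members did not pass the threshold with Nrf2. *Cpt1a*, the entry point of the carnitine shuttle in most tissues, had log2 fold changes of 0.14 at P20 and 0.32 at P40, and *Slc25a20*, the carnitine carrier, −0.16 and −0.37. The acyl-CoA dehydrogenases of the first oxidation step had −0.13 to 0.13 at P20 (*Acadvl* and *Acads*) and −0.33 to 0.13 at P40 (*Acadvl* and *Acads*), with *Acadm* and *Acadl* between. *Hadha* and *Hadhb*, the subunits of the trifunctional protein, had −0.18 and −0.08 at P20 and −0.11 and −0.14 at P40. *Hadh*, the short-chain hydroxyacyl-CoA dehydrogenase, had 0.03 and −0.04. *Bdh1*, which interconverts the ketone bodies acetoacetate and 3-hydroxybutyrate, had −0.24 ± 0.10 at P20 (adjusted *P* = 0.261) and −0.20 ± 0.18 at P40. *Cpt1b* had 0.31 and −0.30 from levels of up to 1.81 CPM, with intervals wider than 2-fold in each direction.

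Among the 35 members not past the threshold, the 95% interval of the fold change lay within 2-fold in both directions for 30 at P20 and 29 at P40. Of all 37 members, including those past the threshold, 8 had an unadjusted *P* value under 0.05 at P20 (21.6%, against 18.2% of all genes). At P40 there were 9 (24.3%, against 13%).

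**Figure D2:**
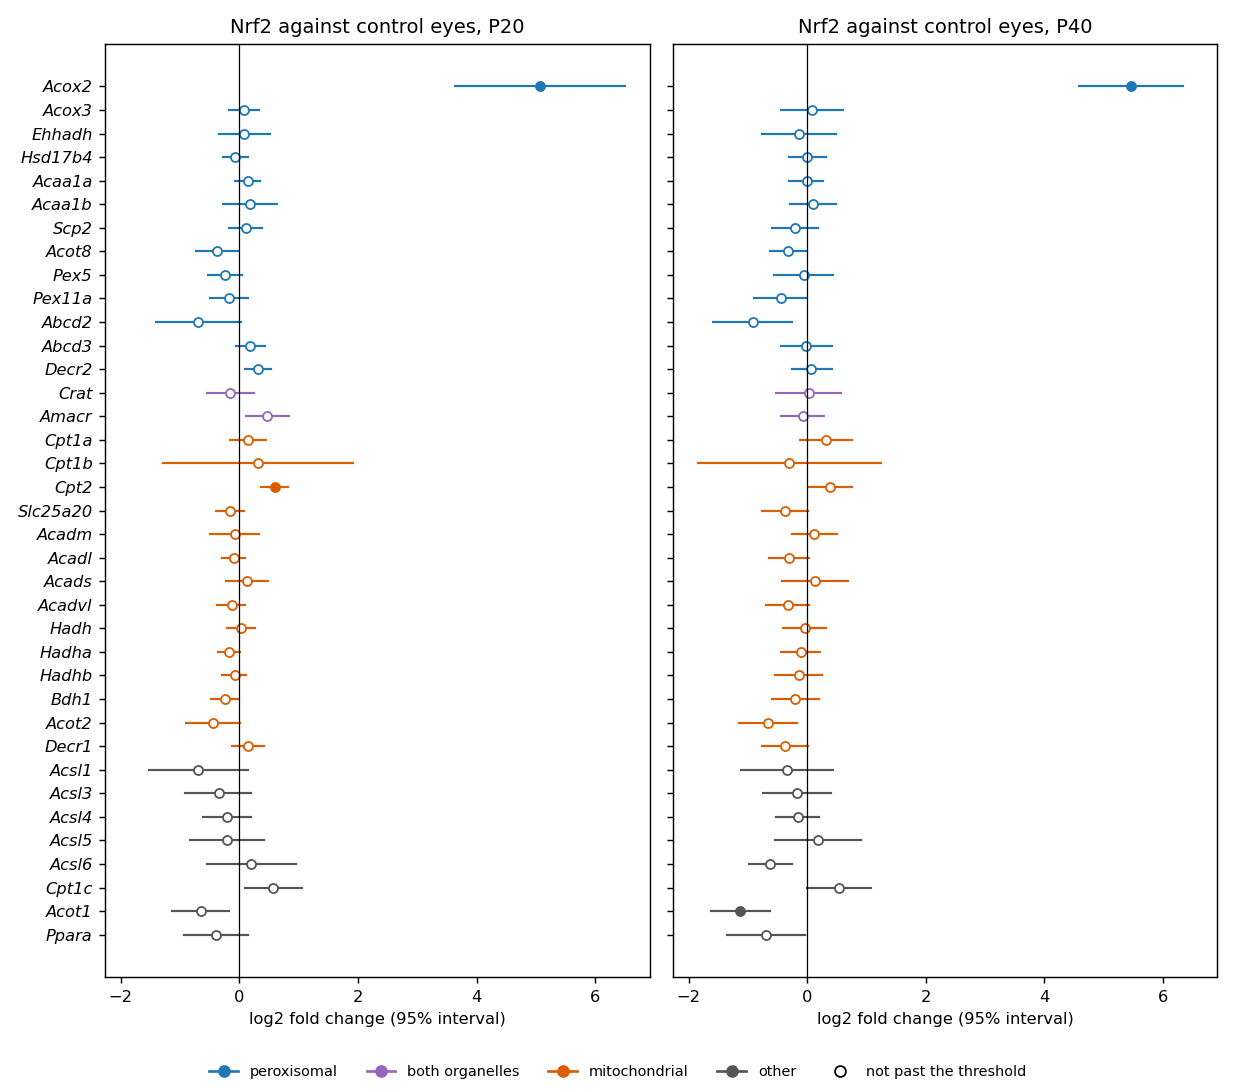
Log2 fold change between the Nrf2 and control eyes for each of the 37 members (rows, colored by the place of the product), at P20 on the left and P40 on the right. Points are fitted values with 95% intervals, and filled points passed the threshold. *Acox2*, at 5.07 and 5.46, stands far to the right of all others, which lie between −1.13 and 0.60.

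Peroxisomal and mitochondrial members were compared within each mouse, as the mean difference between the eyes in log2 CPM over the 13 peroxisomal members minus that over the 14 mitochondrial members. This is a description of chosen lists, with no test. At P20, the mean was 0.38 ± 0.14 (SD, *n* = 7 mice) over peroxisomal and 0.02 ± 0.10 over mitochondrial members, a difference of 0.37 ± 0.08, and the peroxisomal mean was above in 7 of 7 mice. At P40, the means were 0.32 ± 0.26 and −0.09 ± 0.26 (*n* = 9 mice), a difference of 0.41 ± 0.22, with 9 of 9 mice above. Without *Acox2*, the difference was −0.02 ± 0.12 at P20 (above in 3 of 7 mice) and −0.03 ± 0.21 at P40 (above in 5 of 9 mice). With *Acox2* left out, neither age had a difference above its SD. With medians in place of means, the difference was 0.13 ± 0.10 at P20 (7 of 7 mice) and 0.14 ± 0.18 at P40 (8 of 9 mice). Median fitted log2 fold changes were 0.08 and −0.02 for peroxisomal members and −0.08 and −0.17 for mitochondrial members, at P20 and P40.

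In summed levels, the 13 peroxisomal members had 823 ± 65.8 CPM in control eyes and 1033 ± 94.1 CPM in Nrf2 eyes at P20 (*n* = 7 each), and 966 ± 77.8 CPM and 1086 ± 155 CPM at P40 (*n* = 9 each). The 14 mitochondrial members had 1322 ± 64.1 CPM and 1340 ± 69.3 CPM at P20, and 1291 ± 238 CPM and 1258 ± 168 CPM at P40. For both lists, the sums overlapped between the eyes at both ages. The peroxisomal sums include *Acox2*. Its mean at P20 was 3.0 CPM in control eyes and 171 CPM in Nrf2 eyes (*n* = 6 each), with the 2 doubted libraries left out. The sums at P20 hold all 7 libraries of each eye, including the doubted ones. Sums without *Acox2* were not computed, so the part of the other peroxisomal members in these sums was not tested. On the log2 scale, the mean difference over those other members was −0.01 at P20 and −0.11 at P40.

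**Figure D3:**
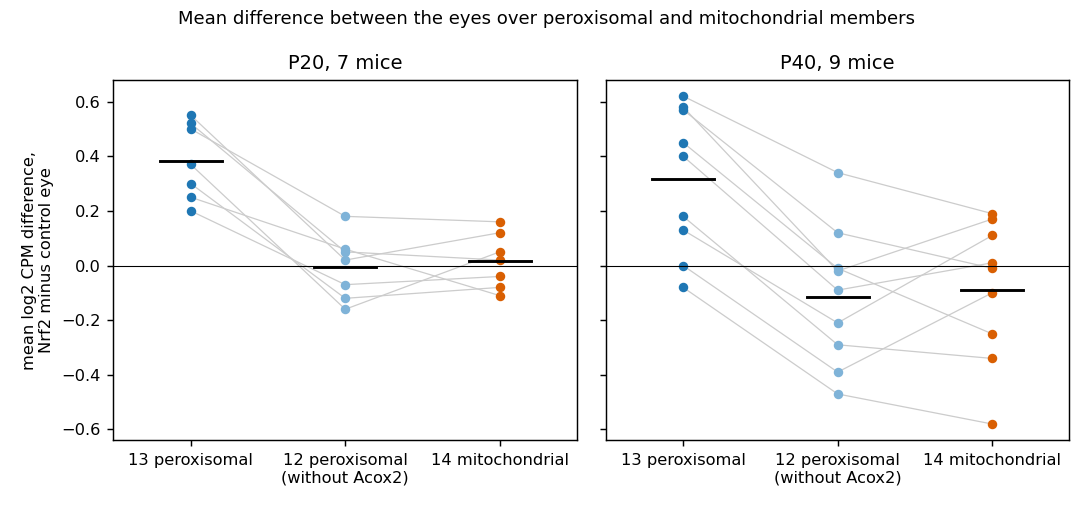
Mean log2 CPM difference between the Nrf2 and control eye of each mouse (vertical axis) over the 13 peroxisomal members, the same list without *Acox2*, and the 14 mitochondrial members. Points are mice, lines join the values of a mouse, and black bars are means over mice. The peroxisomal mean of 0.38 at P20 and 0.32 at P40 drops to −0.01 and −0.11 without *Acox2*.

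*Acot1* encodes a cytosolic thioesterase that frees long-chain fatty acids from CoA and is known as a target of PPARα. At P40, it had 12.2 to 45.9 CPM in control eyes (median 28.8) and 9.21 to 17.9 CPM in Nrf2 eyes (median 10.7). The ranges overlapped, but each of the 9 pairs had less in the Nrf2 eye, 2.18-fold in the fit (log2 fold change −1.13 ± 0.23, adjusted *P* = 0.0132). At P20, it had 16.4 to 33.4 CPM in control eyes (median 25) and 10.9 to 20 CPM in Nrf2 eyes (median 17), and was lower in 7 of 7 pairs. The log2 fold change there was −0.65 ± 0.21 (adjusted *P* = 0.154), and it passed with DESeq2 (adjusted *P* = 0.0493) and without the mouse as a block (adjusted *P* = 0.0402). The difference between the ages was −0.46 (95% interval −1.14 to 0.21). *Acot2*, the mitochondrial thioesterase encoded next to it on chr12, was lower in 7 of 7 and 9 of 9 pairs, with −0.44 ± 0.20 (adjusted *P* = 0.294) and −0.66 ± 0.23 (adjusted *P* = 0.172). *Acot1* and *Acot2* are near-identical copies, so that estimated counts may be shared between them.

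The acyl-CoA synthetases, which activate fatty acids for either pathway, did not pass the threshold. *Acsl1* had log2 fold changes of −0.70 ± 0.37 and −0.34 ± 0.36 at P20 and P40, *Acsl3* −0.35 and −0.18, *Acsl4* −0.21 and −0.16, and *Acsl5* −0.20 and 0.18. *Acsl6*, a form typical of neural tissue, was lower in 8 of 9 pairs at P40 (−0.62 ± 0.17, adjusted *P* = 0.069), with 108 to 397 CPM in Nrf2 eyes and 101 to 851 CPM in control eyes. *Cpt1c*, a neuronal relative of CPT1 in the ER, was higher in 6 of 7 and 8 of 9 pairs (0.57 ± 0.21, adjusted *P* = 0.206, and 0.53 ± 0.25, adjusted *P* = 0.404). Without P20 mice 3 and 4, *Cpt1c* passed at P20 (0.78, adjusted *P* = 0.0445). *Ppara* itself had −0.39 ± 0.24 at P20 (adjusted *P* = 0.421) and −0.69 ± 0.30 at P40 (adjusted *P* = 0.346), from 5.28 ± 2.61 CPM (*n* = 9) in control eyes and 3.12 ± 1.15 CPM (*n* = 9) in Nrf2 eyes at P40.

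Of 70 further genes of these pathways that are not members, 68 were tested. With Nrf2, 1 was higher at P20, beside 3.41% of all genes called. At P40, 1 was higher and 2 were lower, beside 4.57% of all genes called. Of these pathway genes, *Cat* and *Angptl4* are described here. With P20 mice 3 and 4 left out, edgeR called 759 of 16567 genes at P20. Among them, *Cat* (log2 fold change 1.62) and *Nudt12* (1.02, adjusted *P* = 0.0359) were higher. *Acot9* (−1.2, adjusted *P* = 0.0353), *Angptl4*, and *Fabp5* (−0.94, adjusted *P* = 0.034) were lower. *Cat*, the peroxisomal catalase that breaks down the hydrogen peroxide made by acyl-CoA oxidases, was higher at both ages. It had 171 to 348 CPM in control eyes (median 246) and 364 to 971 CPM in Nrf2 eyes (median 653) at P20, without overlap. At P40 it had 92.5 to 521 CPM in control eyes (median 246) and 285 to 999 CPM in Nrf2 eyes (median 689), with overlap. The log2 fold changes were 1.39 ± 0.21 (adjusted *P* = 0.0134, higher in 7 of 7 pairs) and 1.13 ± 0.25 (adjusted *P* = 0.024, higher in 9 of 9 pairs). *Cat* lost the threshold at P20 without mouse 3, 5, or 7, and at P40 without mouse 2, 4, 5, 7, or 8 (adjusted *P* up to 0.0793). Without the mouse as a block, its adjusted *P* value at P40 was 0.0514.

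*Angptl4*, a secreted inhibitor of lipoprotein lipase and a known target of PPAR receptors, had 23 to 82.8 CPM in control eyes (median 36.1) and 6.79 to 26.3 CPM in Nrf2 eyes (median 12.6) at P40. It was lower in 9 of 9 pairs (−1.72 ± 0.20, adjusted *P* = 0.000411), 3.3-fold in the fit. At P20, it had 23.8 to 39.3 CPM in control eyes and 6.67 to 39.9 CPM in Nrf2 eyes, where the top value belonged to the library labelled Nrf2 of mouse 4 (−1.25 ± 0.29, adjusted *P* = 0.0591). Without P20 mice 3 and 4, it passed (−1.52 ± 0.29, adjusted *P* = 0.0392). Another PPAR target, *Pdk4*, which restrains pyruvate oxidation, pointed the other way without passing (0.73 ± 0.35, adjusted *P* = 0.314, and 0.77 ± 0.21, adjusted *P* = 0.0702). *Slc16a1*, a monocarboxylate transporter that carries ketone bodies, had −0.10 at P20 and −0.80 ± 0.21 at P40 (adjusted *P* = 0.0551).

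**Figure D4:**
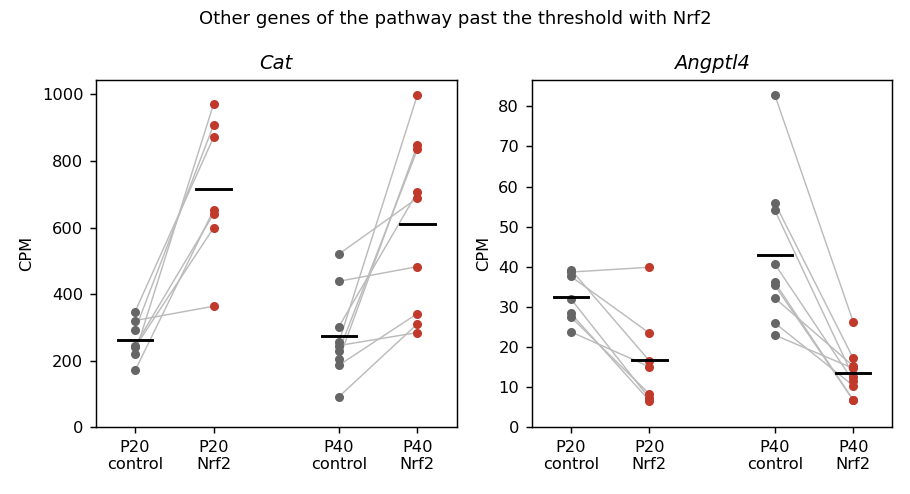
Levels of *Cat* and *Angptl4* in CPM (vertical axis, from 0) by age and eye. Points are libraries, grey lines join the eyes of a mouse, and black bars are group means. *Cat* rises along all 16 lines, and *Angptl4* falls along all 9 lines at P40.

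Between P20 and P40 in control eyes, 3 of 37 members passed the threshold, 2 higher and 1 lower at P40, against 14.8% of 16832 genes tested (8.34% higher and 6.42% lower). *Scp2* ranged from 216 to 353 CPM (median 262) at P20 and from 330 to 602 CPM (median 413) at P40, with overlap through the control eye of P20 mouse 6 (353 CPM). The increase was 1.69-fold in the fit (log2 fold change 0.76 ± 0.17, adjusted *P* = 0.0187). *Decr1*, the mitochondrial 2,4-dienoyl-CoA reductase, ranged from 41.8 to 61.5 CPM (median 47.6) at P20 and from 39.8 to 97.7 CPM (median 80.6) at P40, a log2 fold change of 0.58 ± 0.19 (adjusted *P* = 0.0473). *Acox3* ranged from 38.3 to 54.0 CPM (median 45.6) at P20 and from 13.1 to 49.2 CPM (median 19.9) at P40, a log2 fold change of −0.83 ± 0.24 (adjusted *P* = 0.0345). For all 3 genes the ages overlapped.

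*Scp2* kept its call when each of the 16 control libraries was left out in turn, whereas *Decr1* kept it in 5 and *Acox3* in 6 of these 16. Without both P20 mice 3 and 4, none of the 3 passed, with log2 fold changes of 0.73 (*Scp2*, adjusted *P* = 0.0785), 0.61 (*Decr1*, adjusted *P* = 0.11), and −0.82 (*Acox3*, adjusted *P* = 0.0992). Summed markers of the inner retina were 464 to 1801 CPM in control eyes at P20 and 212 to 1033 CPM at P40, with 2 of 8 markers lower at P40, and 4 of 6 fibroblast markers were lower (109 to 658 CPM against 82.1 to 455 CPM). Also lower were 2 of 8 rod, 1 of 4 melanocyte, and 1 of 5 blood markers, and 1 of 10 RPE markers was higher. Over all genes tested, 6.42% were lower and 8.34% higher. The part of these cell types in the change with age was not tested. The strain question at P40 applies to each of these values. In the labels, the names of all P20 libraries begin with M and those of all P40 libraries with A. What these letters stand for is not given. In every comparison of the ages, a difference between the M and A libraries cannot be told apart from age.

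In Nrf2 eyes, 0 members passed between the ages with edgeR, against 0.502% of 16745 genes, with 8 members (21.6%) at an unadjusted *P* value under 0.05, against 25.8% of all genes. DESeq2 called 1 member and limma voom 7. *Scp2* had 263 to 329 CPM at P20 and 284 to 738 CPM at P40 (log2 fold change 0.50 ± 0.19, adjusted *P* = 0.131). *Acox3* had 39.2 to 55.1 CPM and 10.3 to 51.6 CPM (−0.72 ± 0.31, adjusted *P* = 0.157), and *Decr1* 49.2 to 66.9 CPM and 44.1 to 75.9 CPM (0.03 ± 0.14). *Acsl6* had −0.71 ± 0.24 (adjusted *P* = 0.115). *Acox2* differed by 0.10 on the log2 scale between the ages in Nrf2 eyes (95% interval −0.72 to 0.91) and −1.08 in control eyes (−2.24 to 0.09), and the latter was 0.13 when the mouse 3 control library of P20 is set aside.

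**Figure D5:**
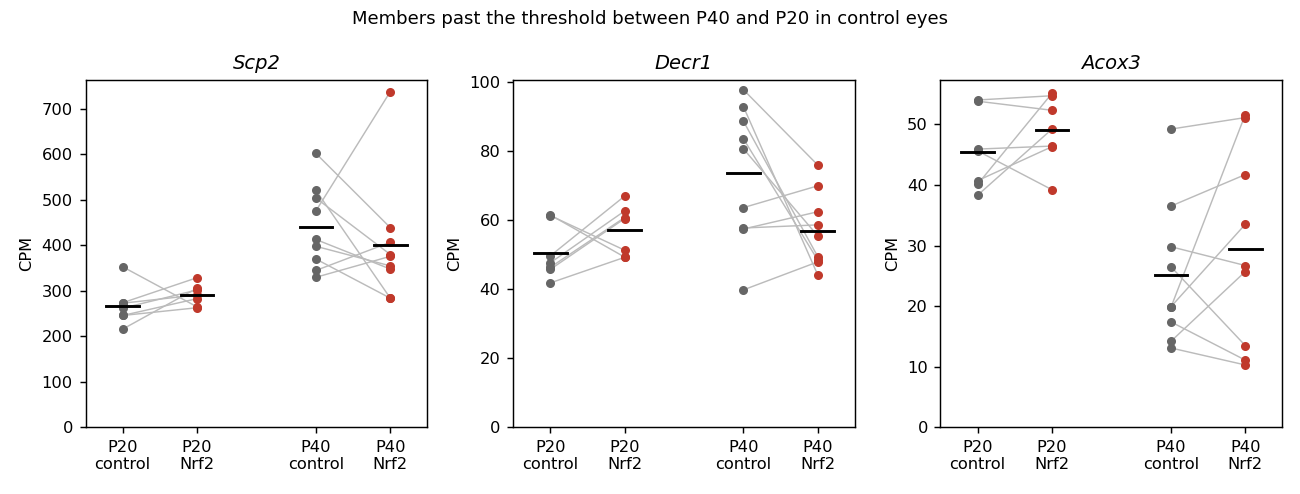
Levels of *Scp2*, *Decr1*, and *Acox3* in CPM (vertical axis, from 0) by age and eye. Points are libraries, grey lines join the eyes of a mouse, and black bars are group means. In control eyes, the mean of *Scp2* goes from 267 to 440 CPM and that of *Decr1* from 50.5 to 73.5 CPM between P20 and P40, and that of *Acox3* from 45.5 to 25.2 CPM, with overlapping points.

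Among the other pathway genes, 7 were higher and 6 lower at P40 in control eyes, of 68 tested, beside 14.8% of all genes called. Without P20 mice 3 and 4, when 158 of 17254 genes were called, only *Pex26* (−1.65, adjusted *P* = 0.0302) and *Ppargc1b* (−0.89, adjusted *P* = 0.0441) of these passed. With each control library left out in turn, *Ech1*, *Pex26*, *Ppargc1b*, and *Slc27a4* kept their calls in 16 of 16 fits, and the others in 4 (*Echs1* and *Eci1*) to 11 (*Etfb*). The higher genes were *Nudt7* and *Ech1* in peroxisomes, *Echs1*, *Eci1*, *Etfb*, and *Hsd17b10* of mitochondrial oxidation, and *Bdh2*, with log2 fold changes of 0.39 (*Echs1*) to 1.2 (*Etfb*). *Etfb*, a subunit of the flavoprotein that takes electrons from acyl-CoA dehydrogenases, had 211 ± 25.2 CPM (*n* = 7) at P20 and 470 ± 275 CPM (*n* = 9) at P40. The lower genes were *Agps*, which acts in ether lipid synthesis, *Pex26*, a peroxisomal membrane protein for import, *Acad9*, *Ppargc1b* and *Esrra*, regulators of mitochondrial genes, and the fatty acid transporter *Slc27a4*, with log2 fold changes of −0.57 (*Acad9*) to −1.58 (*Pex26*). *Pex26* had 18.3 ± 2.09 CPM (*n* = 7) and 5.98 ± 3.51 CPM (*n* = 9). None of the 68 passed between the ages in Nrf2 eyes with edgeR. There, 10 (14.7%) had an unadjusted *P* value under 0.05, against 25.8% of all genes.

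Whether Nrf2 acted differently at P40 than at P20 was tested over all 32 libraries. No member passed with edgeR, DESeq2, or limma voom. Of all 17959 genes, edgeR called 0.00557%, DESeq2 called 13, and limma voom called 1. At an unadjusted *P* value under 0.05 with edgeR were 2.39% of all genes and 3 members (8.11%). These were *Amacr* (−0.54, 95% interval −1.03 to −0.05), *Decr1* (−0.52, −1 to −0.05), and *Acsl6* (−0.81, −1.57 to −0.05), each with a lower Nrf2 effect at P40. For 28 of the 37 members, the interval of the difference lay within 2-fold in both directions.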

How the data were processed

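RPE RNA of both eyes of 16 mice was amplified and sequenced, and reads were quantified per isoform with Salmon 0.9.1, per the labels, in parallel with STAR and featureCounts. Estimated counts for each gene were deposited, which the authors had rounded but not normalized. The table names no counter and was taken to hold the Salmon estimates. Runs are not assigned to libraries. Replicates are separate mice.

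Analysis used edgeR 4.0.16 in R 4.3.3, with filterByExpr, TMM factors, and the quasi-likelihood test. The mouse was a block between eyes, and ages had no block. *P* values were adjusted by Benjamini-Hochberg over all genes tested, with a threshold of 0.05. Log2 CPM used a prior count of 2. Pairing comes from the labels and methods (same animal). The mean correlation of deviations was 0.0213 at P20 and 0.099 at P40. Intervals are 95% and, like the limit of 3 counts, come from amplified RNA. DESeq2 1.42.0, limma 3.58.1 (voom), other filters and scaling, and leaving out mice were alternatives. On simulated data with 200 genes changed 4-fold, edgeR recovered 69% at P20 and 75.5% at P40. All 37 members were named, with 70 pathway genes and marker lists counted. Members and lists were chosen with earlier results of these data known. Coordinates and lengths are from GENCODE vM21 (GRCm38), and promoters from RefSeq. Some pathway genes are not reported here.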

Additional observations from a re-analysis of the deposited data

Results flagged for a closer look

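Within each group, the highest or lowest library stood apart from the others by Dixon's test for 13 of 148 combinations of member and group. Chance flags about 1 in 20 groups, and the members are not independent of each other.

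In the library labelled control of P20 mouse 3, *Acox2* had 31.6 CPM against 6.24 CPM in the next control eye, and *Cpt2* had 57.2 CPM against 49.7 CPM. This is the library with the transgene at 1098 CPM. In the Nrf2 eye of P40 mouse 3, *Abcd3* had 325 CPM (next 203), *Acadvl* 261 CPM (next 173), *Acot2* 10.4 CPM (next 6.45), and *Acot1* 17.9 CPM (next 13.4), each the highest of 9. In the Nrf2 eye of P20 mouse 2, the library with the fewest counts, *Crat* was lowest at 27.0 CPM (next 52.3) and *Hadh* at 88.8 CPM (next 121), and *Ppara* was highest at 9.43 CPM (next 5.48).

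*Scp2* was highest in the control eye of P20 mouse 6 at 353 CPM (next 274) and in the Nrf2 eye of P40 mouse 8 at 738 CPM (next 439). *Acads* was highest in the control eye of P40 mouse 1 at 30.9 CPM (next 16.7), and *Acsl3* in the control eye of P40 mouse 3 at 370 CPM (next 216).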

How the results depend on the processing

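No member changed direction under an alternative where it had been called. The number of members past the threshold with Nrf2 at P20 was 2, against 4 with DESeq2, 6 with limma voom, and 4 with no replicate block, where all genes called numbered 556, 1951, 2605, and 1093. At P40 it was 2, against 5 with DESeq2 and 5 with limma voom (762, 1380, and 1327 genes). For age in control eyes it was 3, against 5 with DESeq2, 8 with limma voom, 1 with no filter, 0 with the replicate number as a block, and 0 without P20 mice 3 and 4 (2483, 4383, 3747, 914, 59, and 158 genes). For age in Nrf2 eyes it was 0, against 1 with DESeq2 and 7 with limma voom (84, 1832, and 2213 genes). DESeq2 added *Decr2* and *Acot1* at P20 and *Acsl6*, *Acot2*, and *Abcd2* at P40, and the fit without the block added *Decr2* and *Acot1* at P20. With Nrf2, taking the block away ended no call of a member. The cause was not tested.

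With each mouse or library left out, these counts ranged from 1 to 5 at P20, 2 to 4 at P40, and 1 to 6 for age in control eyes. At P20, 5 members passed without mouse 4 (1999 of 16330 genes called), and 1 without mouse 1, 3, 5, 6, or 7 (111 to 228 genes). At P40, 3 passed without mouse 6 (997 genes) and 4 without mouse 8 (754 genes). For age, the 6 came without the control eye of P40 mouse 1 (4273 of 16700 genes). Without any 1 of the 7 P20 control eyes or the control eyes of P40 mice 2, 3, and 5, *Scp2* was the single member left (473 to 1520 genes). Without that of P40 mouse 9, *Decr1* was lost (2693 genes). The counts were 0 to 0 for age in Nrf2 eyes and for the difference between the ages. The replicate numbers join different mice across ages, and same-numbered control eyes correlated from −0.312 to 0.0973. *Acox2* with Nrf2 kept its call under all 14 alternatives at P20 (log2 fold change 4.21 to 5.86) and all 15 at P40 (5.22 to 5.85).

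The number of pairs and, for *Cpt1b*, levels of 0.628 CPM or similar limited the precision.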
